A study of Mus musculus with 6 samples.

Results

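Fatty acid desaturases and elongases decide how unsaturated and how long the acyl chains of a cell's lipids are, and 10 mouse genes of these families (Scd1, Scd2, Fads1, Fads2, Fads3, Elovl1, Elovl4, Elovl5, Elovl6 and Elovl7) were followed here in tumour organoids exposed to chemotherapy. They were selected by family name from 24190 genes in the count table, with the Folfiri-against-control values of these same samples already known. Their changes between the groups are therefore given as a description, without a p-value. All 10 passed the expression filter that left 14692 genes, Elovl4 only through its counts in the Folfiri group.

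The organoids were mouse tumour organoids (MTOs) of the type labelled AKP, a colorectal cancer model, and both groups came from the same parental line, MTO54. Cells were seeded in basement membrane extract, and 2 days later the control group (3 samples) received fresh complete stem cell medium while the Folfiri group (3 samples) received that medium with 5FU, given in the sample records as 50 μg/μl, and SN38 at 100 nM. Exposure lasted 2 days by the methods description, whereas a figure legend of the paper gives a longer time. 5FU (5-fluorouracil) blocks thymidylate synthesis, and SN38 is the active form of irinotecan, a topoisomerase inhibitor. Poly(A) RNA was sequenced, with 22103591 to 30098210 counts per sample on genes. The sample records do not say whether the replicates were separate cultures, and the paper calls them biological replicates without further detail. The p-values therefore measure the spread between these samples, which may be technical, and the use of 1 line limits the data to that line.

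Stearoyl-CoA desaturases (Scd) turn palmitic and stearic acid into palmitoleic and oleic acid in the endoplasmic reticulum. Fads2 and Fads1 act in alternation with Elovl5 on the route from linoleic to arachidonic acid. Elovl enzymes catalyse the condensation that opens each round of chain elongation, with Hsd17b12, Hacd and Tecr proteins completing the round. The desaturases receive their electrons through cytochrome b5 and its reductases. Many of these genes are known targets of SREBP, LXR and PPAR transcription factors in liver and other tissues.

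All 5 desaturases sit on chromosome 19 (GRCm38), in a pair of clusters. The first holds Fads3 (chr19:10041569-10060110, plus strand), Fads2 (chr19:10062765-10101746, minus strand) and Fads1 (chr19:10182888-10196877, plus strand). The other holds Scd3 (chr19:44203269-44244016), Scd2 (chr19:44293674-44306864) and Scd4 (chr19:44333092-44346743) on the plus strand and Scd1 (chr19:44394455-44407879) on the minus strand. The elongases are dispersed: Elovl1 at chr4:118428093-118432953 (plus), Elovl4 at chr9:83778692-83806277 (minus), Elovl5 at chr9:77917364-77984519 (plus), Elovl6 at chr3:129532355-129638495 (plus) and Elovl7 at chr13:108214404-108285683 (plus).

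Sequence bears on these counts, because a read from a stretch that relatives share cannot be assigned by sequence alone. Coding sequences of Scd1 and Scd3 were 90.44% identical, those of Scd1 and Scd2 89.77%, and those of Fads2 and Fads3 70.46%, whereas pairs of the 5 listed elongases reached 48.68% to 63.09%. The longest run of identical coding bases between Scd1 and Scd3 spans 185 bases. It lies in coding exons of Scd1, at chr19:44401693-44401865 in exon 4 and chr19:44400363-44400374 in exon 5. Capitals mark the longest unbroken stretch that Scd2 also holds, 125 bases. Scd2 holds nearly all of the lower-case bases too, as part of a run of 98 bases shared with Scd4. Between Fads2 and Fads3 the longest run spans 54 bases, at chr19:10065602-10065643 in exon 10 and chr19:10064800-10064811 in exon 11 of Fads2. Its capitals likewise mark only the longest unbroken stretch also found in Fads1, 17 bases.
Scd1 and Scd3: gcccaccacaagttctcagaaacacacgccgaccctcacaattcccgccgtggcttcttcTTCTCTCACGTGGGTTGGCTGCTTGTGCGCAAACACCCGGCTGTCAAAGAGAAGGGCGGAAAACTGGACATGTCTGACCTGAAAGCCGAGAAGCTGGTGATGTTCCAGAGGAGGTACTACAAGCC
Fads2 and Fads3: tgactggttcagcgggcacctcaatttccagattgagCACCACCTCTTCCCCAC

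Over whole transcripts, 4.66% of the 50-base stretches of Scd1 and 4.01% of those of Scd2 recurred in another gene, against 6.66% for Scd3 and 6.32% for Scd4. For Elovl6 the share was 4.59%, mostly stretches shared with Gm11295. It was 0.16% for Fads2, 0.14% for Fads3, and 0 for Fads1, Elovl1, Elovl4, Elovl5 and Elovl7. How reads that fit several genes were counted is not given in the sources used here, so Scd3 and Scd4 values in particular are uncertain. The library kit does not mark strand, and Elovl1 shares 53 exonic bases with Cdc20 on the opposite strand, so reads in that overlap cannot be told apart.

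Start-site windows are printed for 3 genes that represent the range of responses: Fads2, one of the genes that differed most, its neighbour Fads3, with a smaller difference, and Elovl4, the member that was higher. Each runs from 250 bases before to 50 bases after the start in the RefSeq table (GRCm38.p6), 5′ to 3′ on the gene's strand, and capitals mark a CCAAT box on either strand. The windows lie at chr19:10101454-10101753 (Fads2, minus strand), chr19:10041298-10041597 (Fads3, plus strand) and chr9:83806256-83806555 (Elovl4, minus strand).
Fads2: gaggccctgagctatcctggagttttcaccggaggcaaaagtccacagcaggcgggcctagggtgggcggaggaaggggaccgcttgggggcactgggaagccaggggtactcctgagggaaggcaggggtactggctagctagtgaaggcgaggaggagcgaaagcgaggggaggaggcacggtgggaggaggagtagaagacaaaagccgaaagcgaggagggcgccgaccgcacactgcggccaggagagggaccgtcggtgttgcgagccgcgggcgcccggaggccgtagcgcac
Fads3: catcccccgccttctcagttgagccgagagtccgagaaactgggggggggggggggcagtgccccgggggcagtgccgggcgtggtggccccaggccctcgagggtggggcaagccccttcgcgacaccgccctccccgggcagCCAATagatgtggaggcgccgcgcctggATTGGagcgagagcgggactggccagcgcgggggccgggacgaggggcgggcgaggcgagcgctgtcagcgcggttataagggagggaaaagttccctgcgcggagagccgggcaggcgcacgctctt
Elovl4: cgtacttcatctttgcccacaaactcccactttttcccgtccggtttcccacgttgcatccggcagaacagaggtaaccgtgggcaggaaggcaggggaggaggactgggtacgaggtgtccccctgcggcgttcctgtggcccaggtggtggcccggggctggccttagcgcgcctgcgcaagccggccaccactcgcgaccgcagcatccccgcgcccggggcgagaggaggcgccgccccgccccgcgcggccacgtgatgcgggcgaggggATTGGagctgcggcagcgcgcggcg

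The set of windows used here has no entry for Fads1, Scd1 and Scd2, so their start sites were not examined. The SREBP element TCACNCCAC was found in none of the windows of the other 7 members, and 1.24% of all 32851 windows hold it. Fads3 had 2 CCAAT boxes, Elovl5 had 2, and Elovl1 and Elovl4 had 1 each, whereas 37.4% of all windows have at least 1. The GC box GGGCGG, held by 35.7% of all windows, occurred in those of Fads2 (1), Fads3 (2), Elovl4 (2), Elovl7 (3) and Elovl1 (5), and in neither Elovl5 nor Elovl6. For Elovl1 these counts are of the window at chr4:118427843-118428142, and another window listed for it, at chr4:118429451-118429750, holds 2 GC boxes and no CCAAT box. Direct repeats of AGGTCA with 1 base between them (PPAR element) or with 4 (LXR element) were also absent from these windows, and occurred in 0.0396% and 0.0152% of all windows. These are matches of letters on both strands and say nothing of binding.

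The stearoyl-CoA desaturases held the most transcript of the group and were among the genes that differed most. Scd2, the isoform long known from brain and other tissues outside liver, measured 5651, 7522 and 7786 CPM (counts scaled to a fixed library size, with TMM composition factors) in controls, compared with 795, 781 and 634 CPM in the treated organoids. Its mean went from 6986 ± 1164 (SD, n = 3) to 737 ± 89.3 CPM (SD, n = 3), 9.48-fold lower, with a log2 fold change of -3.25 (SE 0.16). The lowest control sample lay far above the highest Folfiri sample, although the controls differed among themselves by an SD of 0.25 in log2 CPM, the largest of the 10 genes. In bulk RNA, fewer cells that use a gene and less of its RNA per cell cannot be told apart.

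Scd1, the isoform best known from liver and fat, measured 925, 1107 and 1128 CPM in untreated samples and 158, 163 and 144 CPM in treated ones. That is 6.8-fold lower, with a log2 fold change of -2.77 (SE 0.10). The groups did not overlap, and control replicate 1 was the lowest control for both isoforms.

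Of the genes that make polyunsaturated acids, Fads2, which encodes the enzyme of the entry step from linoleic acid, measured 162, 167 and 163 CPM in controls, compared with 18.2, 19.04 and 18.1 CPM under Folfiri. It was 8.9-fold lower, with a log2 fold change of -3.15 (SE 0.07). Fads1, whose enzyme carries out the last desaturation before arachidonic acid, measured 116, 116 and 121 CPM against 13.7, 15.2 and 14.6 CPM. It was 8.11-fold lower, at -3.02 (SE 0.08) on the log2 scale. Replicates of this pair lay close together, with an SD of log2 CPM of at most 0.07 in either group.

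Fads3, which acts on sphingoid bases rather than on arachidonic acid synthesis, differed less than its neighbours. Its values were 50.6, 44.5 and 41.2 CPM without treatment, against 21.5, 23.5 and 22.9 CPM with Folfiri, 2.01-fold lower with a log2 fold change of -1.01 (SE 0.09). The groups were again separate. Here control replicate 1 was the highest control.

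**Figure D1:**
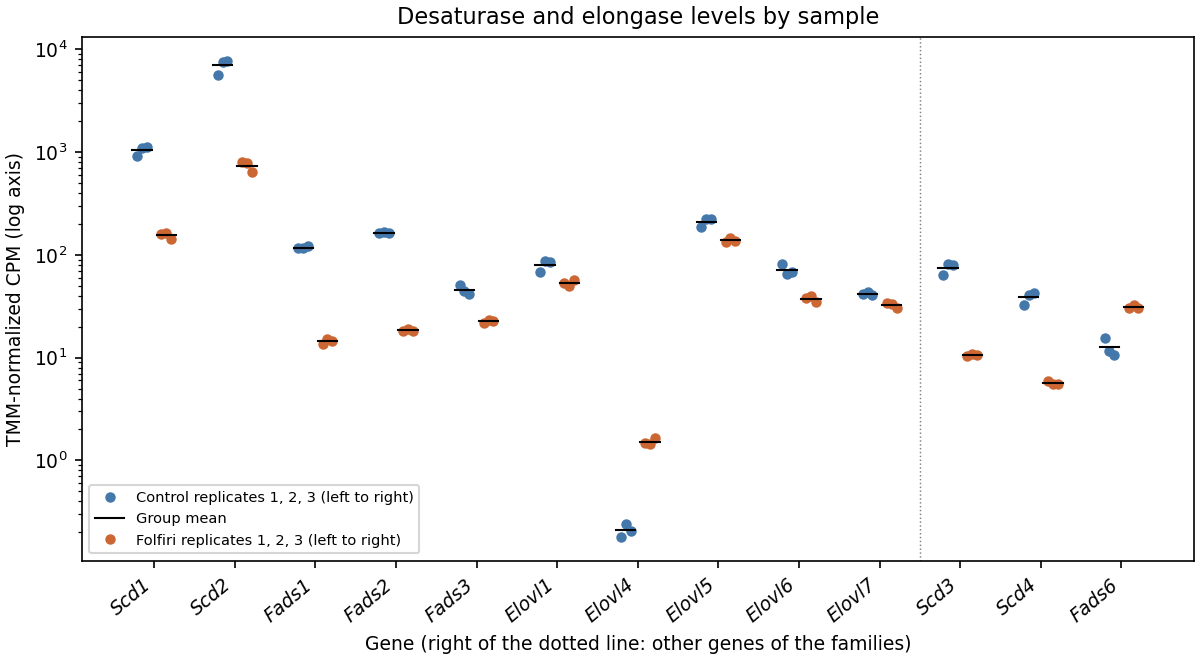
TMM-normalized CPM on a log axis for the 10 desaturase and elongase genes and for Scd3, Scd4 and Fads6, with 1 point per sample (controls blue, Folfiri orange, replicates 1 to 3 from left to right) and black lines for the group means. Scd2 is highest at a control mean of 6986 CPM, Elovl4 is lowest at 0.209 CPM, and in each of the 13 genes shown the 3 Folfiri points lie clear of the 3 control points.

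Of the 5 elongases, 4 were lower after Folfiri, by 1.28-fold to 1.91-fold, and Elovl4 was higher. Elovl6, which extends palmitic to stearic acid and so supplies a substrate of Scd enzymes, measured 82.1, 64.8 and 67.6 CPM in untreated organoids, against 37.9, 39.9 and 34.6 CPM under Folfiri. Its log2 fold change was -0.93 (SE 0.10). Control replicate 1 was the highest control, and the groups did not overlap.

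Elovl5, the elongase of the polyunsaturated route, measured 186, 224 and 223 CPM in controls, against 133, 147 and 136 CPM under Folfiri, a difference of -0.61 on the log2 scale (SE 0.09). Elovl5 kept 65.7% of its control mean, while Fads2 and Fads1, its partners on that route, kept 11.2% and 12.3%. The ratio of Fads2 to Elovl5 per transcript length was 0.837 ± 0.0828 (SD, n = 3) in the controls and 0.142 ± 0.0038 (SD, n = 3) after Folfiri.

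Elovl1, which makes very long saturated and monounsaturated chains, measured 68.9, 86.7 and 85.7 CPM in controls, against 53.4, 49.7 and 57.6 CPM in treated samples, a difference of -0.59 on the log2 scale (SE 0.10). The gap between the groups was narrow next to the distance of control replicate 1 from the other controls. Cdc20, the cell-cycle gene that overlaps Elovl1 on the opposite strand, was also lower, from 203 ± 42.9 to 101 ± 2.7 CPM (SD, n = 3 each; edgeR adjusted p = 4e-05), and its part in the Elovl1 value was not tested.

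Elovl7, another elongase of saturated long chains, showed the smallest difference of the 10. It measured 41.2, 43.5 and 40.6 CPM in controls, against 33.7, 33.4 and 30.5 CPM with treatment, which is -0.36 on the log2 scale (SE 0.08). The groups did not overlap, but with samples scaled by total counts only the value shrank to -0.08 and no longer passed the threshold.

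Elovl4, known for the very long polyunsaturated chains of retina and the very long chains of the skin barrier, was nearly silent and was the member that was higher. Its raw counts were 5, 6 and 4 without treatment, compared with 44, 45 and 54 with it, or 0.18, 0.24 and 0.206 CPM against 1.48, 1.45 and 1.64 CPM. The log2 fold change was 2.85 (SE 0.27), 7.2-fold higher. Even after Folfiri its level per length, 0.503 RPKM, stayed below that of every other member.

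In all, 9 of the 10 genes passed the edgeR threshold (Benjamini-Hochberg adjusted p under 0.05) as lower and 1 as higher. The background was high: 79.1% of the genes tested passed it, 40.3% as higher and 38.8% as lower, and since the genes were selected with this contrast known nothing is read from their count. Their median log2 fold change was -0.97, beside 0.02 for all genes tested. Scaling by total counts only moved that overall median to 0.30 and the share of calls that were higher from 51.0% to 63.3%, and it left 8 of the 10 lower and 1 higher.

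**Figure D2:**
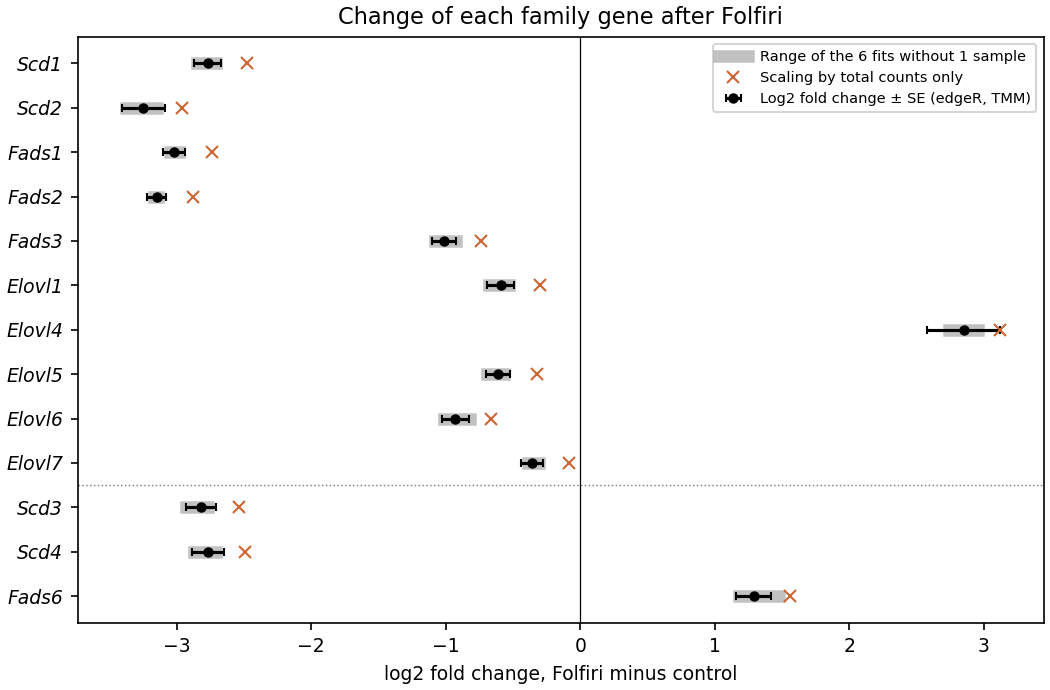
Log2 fold change (Folfiri minus control) of each family gene, with black points and bars for the edgeR estimate ± SE, grey bands for the range of the 6 fits that leave out 1 sample, and crosses for scaling by total counts only. Scd1, Scd2, Fads1 and Fads2 lie between -2.77 and -3.25, the other members that were lower lie between -0.36 and -1.01, and Elovl4 and Fads6 lie to the right of 0.

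Control replicate 1 stood apart from the other controls across the transcriptome (chi-square per degree of freedom of 23.7 and 22.39 against replicates 2 and 3, which gave 3.844 between them). Against the mean of those replicates it was lower for Scd2 by a log2 difference of -0.44, for Elovl1 by -0.32, for Elovl4 (4 to 6 counts per control) by -0.30, for Scd1 by -0.27 and for Elovl5 by -0.26, and higher for Elovl6 by 0.31 and for Fads3 by 0.24. Fads1, Fads2 and Elovl7 differed by at most 0.03 in size. Without it, the log2 fold changes were -3.38 for Scd2, -2.85 for Scd1, -3.16 for Fads2, -3.03 for Fads1, -0.92 for Fads3, -0.82 for Elovl6, -0.69 for Elovl5, -0.68 for Elovl1, -0.37 for Elovl7 and 2.74 for Elovl4. Among the treated samples, Folfiri replicate 3 stood apart by less (12.32 and 11.87 against replicates 1 and 2, which gave 3.547 between them). Without it, Scd2 stood at -3.15, Scd1 at -2.71, Elovl1 at -0.64, Elovl6 at -0.88, Elovl7 at -0.31 and Elovl4 at 2.79, and Fads1, Fads2, Fads3 and Elovl5 moved by at most 0.02.

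Other genes of the families lay outside the member list, and their contrast was tested. They too were listed with earlier results of these data known, which limits their p-values. Scd3, a skin and sebaceous gland isoform, fell from 63.8, 81.6 and 79.2 CPM to 10.4, 10.8 and 10.5 CPM (log2 fold change -2.82, SE 0.11, edgeR adjusted p = 7.24e-09). Scd4, an isoform known from heart, fell from 32.8, 41.0 and 42.1 CPM to 5.94, 5.55 and 5.49 CPM (-2.77, SE 0.12, edgeR adjusted p = 1.41e-08). Scd3 counts amounted to 6.58% to 7.37% of Scd1 counts in each sample and Scd4 counts to 3.41% to 3.82%, so both followed Scd1 closely, and the part of shared sequence in this was not tested.

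Fads6, a family member whose substrate is poorly defined, rose from 15.7, 11.7 and 10.7 CPM to 30.7, 32.7 and 30.4 CPM. Its log2 fold change was 1.29 (SE 0.13, edgeR adjusted p = 4.98e-06), or 1.48 without control replicate 1. Elovl2 had 0 to 2 counts per sample and Elovl3, an elongase of brown fat and skin, 0 to 3, so neither was tested. Fads2b was not analysed here.

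Levels of different genes were compared per length, as RPKM over merged exons. In controls the order was Scd2 at 1279, Scd1 at 215, Elovl5 at 59.9, Fads2 at 49.8, Elovl1 at 29.5, Fads1 at 24.5, Fads3 between 10.9 and 13.4, Elovl6 at 11.1, Elovl7 at 10.4 and Elovl4 at 0.0689 RPKM. Fads3 overlapped Elovl6 and Elovl6 overlapped Elovl7 in their sample ranges, and all other neighbours in that order were separate. After Folfiri the order was Scd2 at 135, Elovl5 at 39.3, Scd1 at 31.7, Elovl1 at 19.6, Elovl7 at 8.11, Fads3 at 5.97, Elovl6 at 5.83, Fads2 at 5.59, Fads1 at 3.02 and Elovl4 at 0.503 RPKM, in which Fads3 overlapped Elovl6 and Elovl6 overlapped Fads2. The order depends in part on the length used: per longest annotated transcript Elovl1 stood at 44.4 RPKM in controls and 29.6 RPKM after Folfiri, where its range of 27.4 to 31.8 overlapped that of Scd1, 29.8 to 33.7, and Elovl6 at 6.3 RPKM then had a higher mean than Fads3 at 6.14 RPKM, with overlapping ranges. In controls Elovl6 and Elovl7 no longer overlapped on that scale.

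Elovl5 thus stood below Scd1 in the controls and above it after Folfiri. Fads2 stood above Elovl1 in the controls and below Elovl7 after Folfiri, and Fads1 likewise changed from above Elovl7 to below it. Summed over the 10 genes, the level per length was 1691 ± 244 RPKM in the controls and 254 ± 18.4 RPKM after Folfiri (SD, n = 3 each). The 5 desaturases accounted for 1580.2 ± 235 and 181 ± 18.3 RPKM of this, and the 5 elongases for 111 ± 8.47 and 73.4 ± 1.41 RPKM.

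The make-up of the sum differed accordingly. Elongases held 7.17%, 6.44% and 6.22% of it in controls, against 27.3%, 28.1% and 31.4% in treated samples, and Scd2 alone held 75.4% ± 1.88 and 52.8% ± 2.8 (SD, n = 3 each). Of all counts on genes, 0.793% ± 0.0787 fell on the 10 genes in the controls and 0.133% ± 0.0116 after Folfiri (SD, n = 3 each). Between close relatives, the ratio of Fads2 to Fads1 was 2.04 ± 0.0761 and 1.86 ± 0.066, that of Scd2 to Scd1 was 5.91 ± 0.387 and 4.25 ± 0.283, and that of Fads1 to Fads3 was 2.06 ± 0.257 and 0.506 ± 0.00395 (SD, n = 3 each). The proportions of Fads1 and Fads2 were thus nearly kept between the groups, while Fads3 departed from its neighbours.

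**Figure D3:**
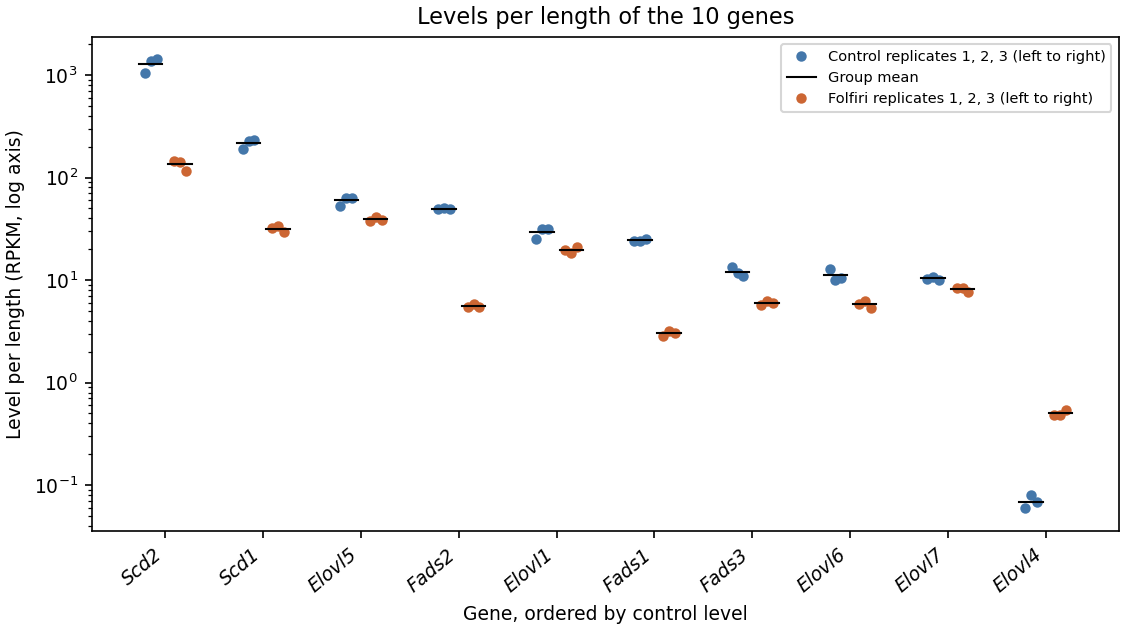
Level per length (RPKM over merged exons, log axis) of the 10 genes in order of their control mean, with 1 point per sample, controls blue and Folfiri orange, and black lines for the group means. Scd2 and Scd1 lead the controls at 1279 and 215 RPKM, and after Folfiri Fads2 and Fads1 sit at 5.59 and 3.02 RPKM, below Elovl7 at 8.11 RPKM.

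Genes beside the clusters, looked at after the members' values were known, did not follow one direction. Within 100 kb of the Fads cluster 5 other genes were tested. Fen1, the flap endonuclease of DNA replication and repair, whose nearest end lies 2.255 kb from the cluster, rose (log2 fold change 1.23, edgeR adjusted p = 1.81e-05). Myrf, a transcription factor of myelin-forming cells, stood at 2.77, from a low level of 0.18 to 0.28 CPM in controls. It passed the expression filter only through its Folfiri counts, so no p-value is given for it. Tmem258, a subunit of the oligosaccharyltransferase, fell (-0.40, edgeR adjusted p = 0.00489). Values that did not pass the threshold were 0.01 for Fth1 (ferritin heavy chain, edgeR adjusted p = 0.939) and -0.18 for Dagla (diacylglycerol lipase, edgeR adjusted p = 0.377).

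Within 100 kb of the Scd cluster 4 other genes were tested. Cwf19l1 rose (log2 fold change 2.05, edgeR adjusted p = 1.59e-08), as did Bloc1s2, a subunit of a complex for lysosome-related organelles (0.78, edgeR adjusted p = 4.37e-06), and Chuk, a kinase of the NF-kB pathway (0.21, edgeR adjusted p = 0.0171). AC123853.3, an unprocessed pseudogene inside the cluster that shares sequence with Scd3, fell (-2.40, edgeR adjusted p = 6.02e-07). Out to 500 kb, 8 of 16 tested genes rose and 3 fell around the Fads cluster, and 8 of 14 rose and 5 fell around the Scd cluster, beside 40.3% and 38.8% of all genes tested. The genes that rose include Myrf, Ppp1r32 and Pax2, which passed the expression filter only through their Folfiri counts.

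**Figure D4:**
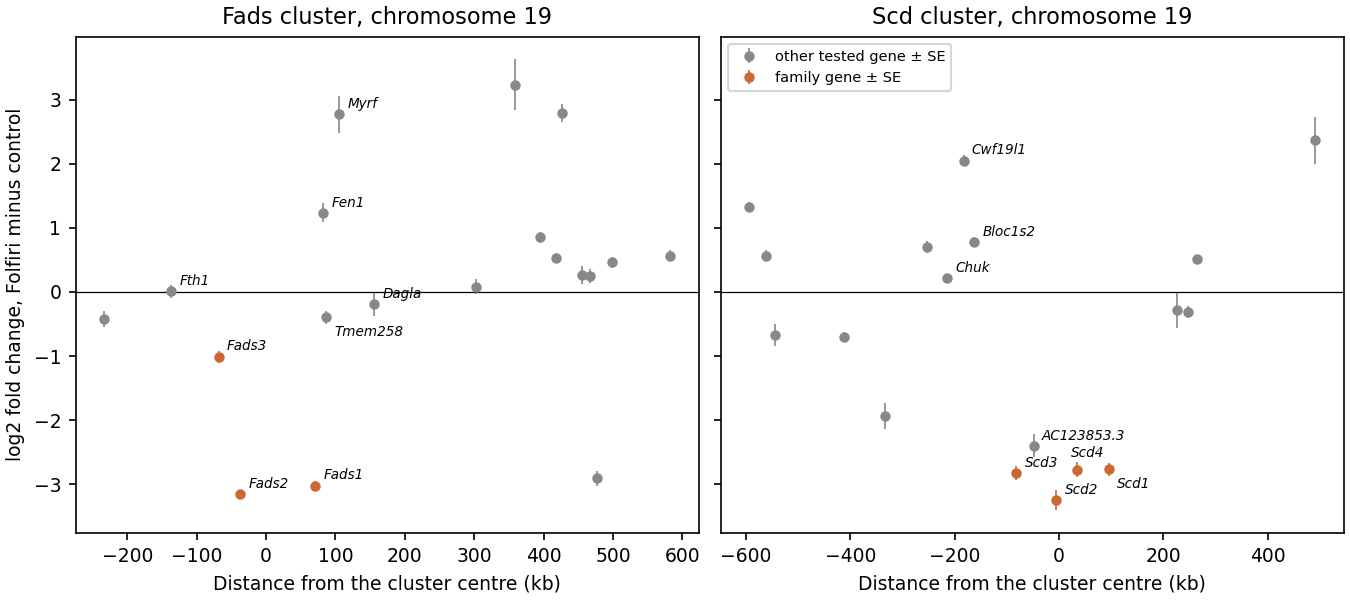
Log2 fold change (Folfiri minus control, ± SE) of tested genes within 500 kb of the Fads and Scd clusters against the distance from the cluster centre in kb, with family genes in orange and other genes in grey. The family genes lie between -1.01 and -3.25, while grey genes beside them range from -0.40 (Tmem258) to 2.77 (Myrf) at the Fads cluster and from -2.40 (the pseudogene AC123853.3) to 2.05 (Cwf19l1) at the Scd cluster, within 100 kb.

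Around the members, 10 lists of fatty acid genes were examined, and they too were written with earlier results of these data known. The partners of the elongation cycle moved in both directions: 2 of 6 tested genes rose, 3 fell and 1 did not pass, beside 40.3% higher and 38.8% lower among all genes tested, with a median log2 fold change of -0.19. Tecr, the reductase that closes each round, fell from 209 ± 15.9 to 73.0 ± 4.49 CPM (-1.51, edgeR adjusted p = 6.46e-08), and Hsd17b12, the ketoacyl reductase, fell from 184 ± 7.07 to 117 ± 7.65 CPM (-0.66, edgeR adjusted p = 1.17e-05). The dehydratases split, Hacd2 rising (0.55, edgeR adjusted p = 0.000201) and Hacd3 rising (0.34, edgeR adjusted p = 0.00228) while Hacd1 fell (-0.32, edgeR adjusted p = 0.00689), and Hacd4 stood at -0.07 (edgeR adjusted p = 0.746). With total counts only the median of this list turned positive, at 0.08.

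For the electron donors of the desaturases, 1 of 5 tested genes rose, 2 fell and 2 did not pass, where 40.3% and 38.8% of all genes tested rose and fell. Cyb5r3, the main cytochrome b5 reductase, fell from 238 ± 14.0 to 124 ± 3.83 CPM (log2 fold change -0.94, edgeR adjusted p = 6.63e-07), and Cyb5r4 fell by less, at -0.22 (edgeR adjusted p = 0.0174). Cyb5r1 rose from 18.0 ± 2.28 to 42.2 ± 1.43 CPM (1.22, edgeR adjusted p = 1.05e-06). The cytochrome b5 genes themselves stood at 0.03 for Cyb5a (edgeR adjusted p = 0.762) and 0.07 for Cyb5b (edgeR adjusted p = 0.441), with group ranges that overlapped. Scaling by total counts only gave 3 higher and 1 lower, and without Folfiri replicate 1 or without Folfiri replicate 2 the genes that fell went from 2 to 1.

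In the list for synthesis of the saturated substrate, 7 of 8 tested genes fell by edgeR, beside 38.8% of all genes tested, none had a positive fold change, and the median was -1.04. DESeq2, which also took in Thrsp at under 1 CPM, called 7 lower and 1 higher. Acss2, which makes acetyl-CoA from acetate, fell from 102 ± 13.1 to 4.43 ± 0.283 CPM (log2 fold change -4.52, edgeR adjusted p = 1.61e-09). Slc25a1, the mitochondrial citrate carrier, fell (log2 fold change -2.25, edgeR adjusted p = 4.02e-08), as did Me1, a source of NADPH (-1.51, edgeR adjusted p = 3.09e-07), and Acaca, acetyl-CoA carboxylase (-1.14, edgeR adjusted p = 1.4e-06). Fasn, fatty acid synthase, fell from 875 ± 128 to 454 ± 33.3 CPM (-0.95, edgeR adjusted p = 1.91e-05), and so did Acly, ATP citrate lyase (-0.47, edgeR adjusted p = 0.000193). Acacb, the carboxylase linked to fatty acid oxidation, stood at -0.01 (edgeR adjusted p = 0.967).

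Among acyl-CoA synthetases and fatty acid transport proteins, which activate fatty acids for elongation and desaturation, 7 of 8 tested genes fell by edgeR, beside 38.8% of all genes tested, and none had a positive fold change. The median was -1.16, or -0.89 with total counts only, and DESeq2, which took in genes below the filter, called 7 lower and 0 higher with a median of -0.71. Acsl4, which prefers arachidonic acid, fell from 186 ± 5.38 to 65.0 ± 5.91 CPM (log2 fold change -1.52, edgeR adjusted p = 5.81e-08), and Acsl3 fell from 286 ± 27.0 to 119 ± 7.3 CPM (-1.27, edgeR adjusted p = 3.33e-07). Acsl6 did not pass (-0.22, edgeR adjusted p = 0.063).

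Of 14 tested regulators of lipid synthesis genes, 9 fell, 3 rose and 2 did not pass, against 38.8% lower and 40.3% higher over all genes tested, with a median of -0.42. Insig1, which retains SREBP in the endoplasmic reticulum and is itself an SREBP target, fell from 773, 1128 and 1145 CPM to 79.3, 77.4 and 72.7 CPM (log2 fold change -3.73, edgeR adjusted p = 1.02e-08). Srebf2, the SREBP gene of the sterol pathway, fell from 839 ± 105 to 313 ± 9.5 CPM (-1.42, edgeR adjusted p = 3.83e-07), and Pparg fell from 48.9 ± 0.972 to 14.8 ± 0.928 CPM (-1.73, edgeR adjusted p = 2.78e-08). Those that rose were Mbtps2, a protease that releases SREBP (1.27, edgeR adjusted p = 2.23e-06), Rxra, the partner of LXR and PPAR receptors (0.85, edgeR adjusted p = 3.67e-05), and Mlx (0.44, edgeR adjusted p = 0.000152). With total counts only, 6 fell and 3 rose, and the median was -0.15.

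Users of the chains were mixed, as were all genes tested (40.3% higher, 38.8% lower). Among ceramide synthases and sphingolipid desaturases 2 of 7 tested genes rose and 3 fell, with Degs1, the main dihydroceramide desaturase, rising (log2 fold change 0.82, edgeR adjusted p = 1.43e-05) and Degs2, which also makes phytoceramide, falling (-1.25, edgeR adjusted p = 2.81e-07). With total counts only 3 rose and 1 fell. Of 12 tested phospholipid acyltransferases 5 rose and 4 fell, from Lpcat1 (0.97, edgeR adjusted p = 1.25e-05) to Mboat2 (-2.22, edgeR adjusted p = 6.91e-09), and the median was -0.04. With total counts only 5 rose and 2 fell, and the median was 0.23.

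**Figure D5:**
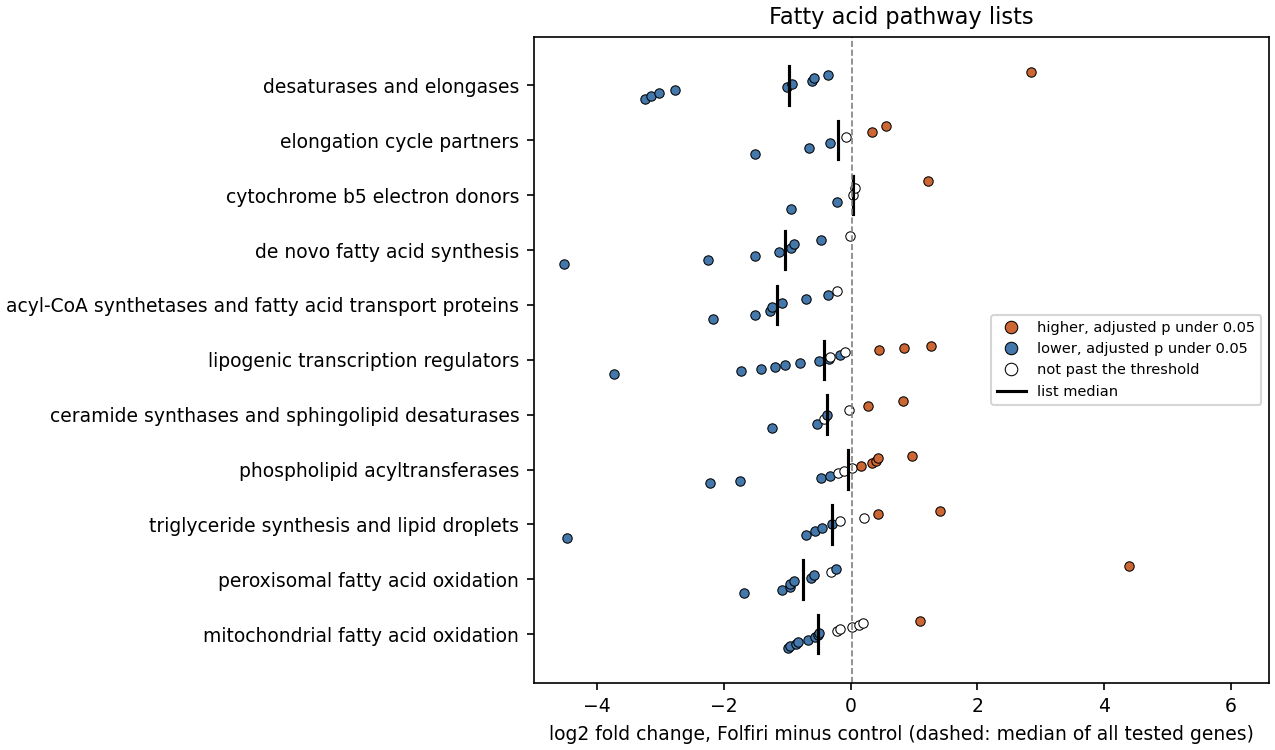
Log2 fold change (Folfiri minus control) of each tested gene in the 10 members and in 10 further lists of fatty acid genes, coloured by whether the edgeR adjusted p was under 0.05, with black bars at list medians and a dashed line at the median of all genes, 0.02. Medians are -0.97 for the members, -1.04 for de novo synthesis and -1.16 for acyl-CoA synthetases and transport proteins, against -0.19 for the elongation partners and 0.03 for the electron donors.

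Cell type markers were read for the same samples. The epithelial list summed to 5729 to 6636 CPM in the controls and 4643 to 4813 CPM after Folfiri, with Krt20 at only 1.15 to 1.58 CPM. Sums of the fibroblast list were 1.08 to 1.44 and 2.06 to 2.45 CPM, those of the immune list 0.668 to 0.936 and 2.3 to 2.48 CPM, those of the adipocyte list 0.103 to 0.504 and 0.697 to 0.742 CPM, and those of the hepatocyte list 2.44 to 3.29 and 1.23 to 1.78 CPM. Of the tested markers, 1 of 8 epithelial genes rose and 4 fell, 2 of 3 fibroblast genes rose and 1 fell, and both immune genes tested rose. Of 3 endothelial genes 1 fell (Vwf), the hepatocyte gene tested (Alb) fell, and the adipocyte gene tested (Fabp4) did not pass, beside 40.3% higher and 38.8% lower among all genes tested. The tested fibroblast and immune genes each passed the expression filter only through the group where they were higher. Their direction was therefore nearly fixed in advance, and nothing is read from it. The endothelial list reached 79.6 to 132 and 69.0 to 79.3 CPM, nearly all of it Cdh5, and 3.71 to 9.23 CPM without it. Col3a1, Pdgfrb and Thy1, Csf1r and Itgam, Kdr, Adipoq and Cidec, and Ttr were at 0 in all controls, and Tyrobp and Lep were at 0 in all Folfiri samples. The part of these lists in the differences of the desaturases and elongases was not tested.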

How the data were processed

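The authors aligned reads of the 6 MTO54 samples with STAR 2.5.2 to the mouse genome (mm10, GRCm38), assigned them to GENCODE genes and deposited raw counts per gene. Strand and multiple-mapping settings are not given in the sources used here. The deposited counts were tested as they stood: edgeR 4.0.16 in R 4.3.3, TMM scaling, filterByExpr, quasi-likelihood test of group, Benjamini-Hochberg adjustment over 14692 genes, threshold 0.05. DESeq2 1.42.0, other scalings, other filters, each sample left out and a replicate block were alternatives. The fitting was tested on simulated data. CPM use TMM library sizes, and RPKM divides them by merged exon length. Depth was 22103591 to 30098210 counts, and errors are SD over 3 samples.

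The members and all lists were chosen with earlier results of these data known. Named genes were all members, other family genes and, per list, up to 3 called genes per direction, ranked by size of change, whose groups did not overlap and whose mean reached 5 CPM, or the whole list at up to 9 tested genes. Cluster neighbours and Cdc20 were added after values were seen, and 1 gene that the rule named is not reported here. Gene symbols came from GENCODE (24124 of 24190 matched), and start-site windows from RefSeq.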

Additional observations from a re-analysis of the deposited data

How the results depend on the processing

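Across scaling, filter, DESeq2, replicate block and leave-one-out alternatives, the members stayed at 1 higher and 9 lower, except 8 lower with total counts only. Leaving out 1 sample gave 11021 to 12312 genes changed, beside 11623 with all samples. Total counts only gave 11572 genes and moved each member by about the shift of the overall median, Scd2 to -2.96, Fads2 to -2.88, Elovl5 to -0.32 and Elovl1 to -0.30. Adjusted p over all alternatives was at most 9.89e-05 for Fads6, 1.35e-06 for Scd3 and 2.11e-06 for Scd4.

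Deviations of same-numbered samples from their group means showed little correlation (0.02675, -0.1171 and 0.0393). With 3 samples per group this cannot show whether replicate numbers pair the samples. A replicate block gave 11499 genes changed, with 9 members lower and 1 higher. Elovl4, at 4 to 6 counts per control, is the member that depth limits most.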

Other observations

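Lists of genes that store or oxidise fatty acids are given beside the shares over all genes tested, 79.1% called, 40.3% higher and 38.8% lower. Of 9 tested genes of triglyceride synthesis and lipid droplets 5 fell and 2 rose, with a median log2 fold change of -0.29, whereas with total counts only 3 fell and 3 rose and the median was -0.01. Lpin1, a phosphatidate phosphatase, fell from 157 ± 16.5 to 7.08 ± 0.997 CPM (-4.47, edgeR adjusted p = 1.61e-09; SD, n = 3 each), whereas Plin2, a coat protein of lipid droplets, rose from 23.3 ± 1.5 to 61.8 ± 3.07 CPM (1.41, edgeR adjusted p = 1.12e-07). Pnpla2, the lipase that opens triglyceride breakdown, rose by less (0.44, edgeR adjusted p = 0.000153), and Dgat1 and Dgat2, which close triglyceride synthesis, stood at 0.21 and -0.16 (edgeR adjusted p = 0.167 and 0.156).

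Of 10 tested genes of peroxisomal oxidation 8 fell and 1 rose, against 38.8% lower and 40.3% higher over all genes tested, and Abcd3, a transporter of the peroxisomal membrane, was among those that fell (-1.08, edgeR adjusted p = 2e-07). In the mitochondrial list 8 of 14 fell and 1 rose, beside the same shares over all genes. The acyl-CoA dehydrogenases Acads, Acadm and Acadl fell (log2 fold changes -0.99, -0.96 and -0.86, edgeR adjusted p = 6.38e-07, 9.98e-07 and 1.51e-06), and Eci1, an isomerase needed for unsaturated chains, rose from 29.0 ± 0.517 to 62.2 ± 4.46 CPM (1.10, edgeR adjusted p = 4.71e-07; SD, n = 3 each). With total counts only 4 mitochondrial genes rose and 8 fell.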
